A study of Mus musculus with 12 samples.

Results

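The 3 fibrinogen chain genes Fga, Fgb and Fgg and the acute phase genes Saa1, Saa3, Hp, Orm1 and C3 were described in mouse mammary gland by every probe set named for one of these genes alone. Of the 8 genes, 7 had such a probe set, giving 8 probe sets of the 34945 with 1 gene symbol on the arrays (7 of 18193 named genes). Saa1 had 2 probe sets and the other 6 genes 1 each, and C3 was not analysed here. The genes were chosen by earlier results on these arrays, among them the expression difference of Fgg between genotypes at 24 h, so their genotype differences are given as a description; calls among them are counted once, beside the share of all probe sets called, and support nothing.

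The arrays held mammary gland RNA of female BALB/c mice, 10 weeks of age and ovariectomized, that were wild type or null for the progesterone receptor. All mice were given 17β-estradiol (100 ng) under the skin for 24 h and then 17β-estradiol (100 ng) together with progesterone (2.5 ug) for 8 or 24 h. The 4 groups, wild type at 8 h, null at 8 h, wild type at 24 h and null at 24 h, had 3 arrays each, and each array held RNA pooled from 3 mice, numbered pool 1 to 3. No group lacked progesterone, so a genotype difference does not separate a response to the hormone from a lasting difference between the genotypes, and the time groups also differed in the length of 17β-estradiol treatment. All values below are deposited expression values read as log2, where 1 unit is a doubling; errors of group means are SD with n = 3 pools, SE is the standard error of a log2 difference, and levels of different probe sets are not compared.

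Acute phase proteins are plasma proteins whose production, mainly by hepatocytes, rises in inflammation. Cytokines of the interleukin-6 family act through the transcription factor STAT3, and interleukin-1 acts through NF-kB and C/EBP factors, to switch their genes on. Fibrinogen is built of Aα, Bβ and γ chains, encoded by Fga, Fgb and Fgg, and thrombin turns it into fibrin, the mesh of a blood clot. Serum amyloid A proteins, encoded by the Saa genes, bind lipoproteins, haptoglobin (Hp) captures free haemoglobin, and orosomucoid (Orm1) is an abundant carrier glycoprotein of plasma. Outside the liver, Saa3, Hp and Orm1 are also known to be expressed in fat tissue, and Saa3 in mammary epithelium and macrophages.

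The start regions of the fibrinogen genes are shown because the 3 genes lie side by side and gave unlike values in these arrays. In the RefSeq annotation of GRCm38.p6 the order on chromosome 3 is Lrat, Fgg, Fga, Fgb, Plrg1, with Fgg and Fga on the plus strand and Fgb on the minus strand. The start region of Saa3, which lies on chromosome 7 between Saal1 and Saa4, is shown as that of the serum amyloid gene with a tested probe set. Each run is the 250 bases before the annotated start from the RefSeq promoter table, 5′ to 3′ on the gene's strand, at chr3:83007474-83007723 for Fgg, chr3:83025903-83026152 for Fga, chr3:83049864-83050113 for Fgb and chr7:46715677-46715926 (minus strand) for Saa3. Capitals mark a match, on either strand, to the STAT motif TTCNNNGAA or the C/EBP motif TTGCNNAA.
Fgg: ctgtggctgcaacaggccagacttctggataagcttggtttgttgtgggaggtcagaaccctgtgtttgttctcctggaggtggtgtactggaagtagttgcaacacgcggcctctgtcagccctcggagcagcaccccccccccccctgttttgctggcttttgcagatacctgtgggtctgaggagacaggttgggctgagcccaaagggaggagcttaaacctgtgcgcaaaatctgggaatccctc
Fga: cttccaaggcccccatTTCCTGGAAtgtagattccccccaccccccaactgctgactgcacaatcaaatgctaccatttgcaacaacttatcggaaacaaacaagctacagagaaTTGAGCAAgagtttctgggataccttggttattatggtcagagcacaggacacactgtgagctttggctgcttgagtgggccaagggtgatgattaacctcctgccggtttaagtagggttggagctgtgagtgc
Fgb: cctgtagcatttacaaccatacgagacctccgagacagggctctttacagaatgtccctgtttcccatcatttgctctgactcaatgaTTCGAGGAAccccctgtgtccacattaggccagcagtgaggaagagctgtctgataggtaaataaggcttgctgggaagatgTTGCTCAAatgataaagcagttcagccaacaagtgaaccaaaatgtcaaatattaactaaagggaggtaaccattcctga
Saa3: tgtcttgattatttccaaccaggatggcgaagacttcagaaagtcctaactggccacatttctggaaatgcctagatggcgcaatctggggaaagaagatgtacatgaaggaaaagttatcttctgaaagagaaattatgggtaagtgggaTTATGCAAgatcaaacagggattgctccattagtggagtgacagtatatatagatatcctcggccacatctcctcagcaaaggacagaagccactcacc

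Fga held a STAT match, TTCCTGGAA, from 234 to 226 bases before its start, and a C/EBP match on the opposite strand, which reads TTGAGCAA on the gene's strand, from 135 to 128 bases before it. Fgb held the STAT match TTCGAGGAA from 162 to 154 bases before its start and the C/EBP match TTGCTCAA from 80 to 73 bases before it. Saa3 held a C/EBP match on the opposite strand, TTATGCAA on the gene's strand, 99 to 92 bases before its start, and the Saa1 window held TTGCACAA from 182 to 175 bases before the start. In Fgg none of the 5 motifs searched was found in this window, which says only that these letters are not in it. The other 3 were an NF-kB motif, an HNF1 motif and a steroid receptor motif. No exact match to any of them was found in Fga, Fgb, Saa1 or Saa3. Here too only the searched letters are absent. Sites that differ from them by a letter were not searched, so a site for these factors, such as HNF1 in Fgb, is not excluded. Over 32851 RefSeq windows of the same length, the STAT motif was held by 7.02%, the C/EBP motif by 9.56%, NF-kB by 4.65%, HNF1 by 0.0335% and the steroid receptor motif by 0.387%, each on both strands. The Fgg window was 56.8% G or C, against 49.2% in Fga, 44.8% in Fgb, 52.8% in Saa1 and 43.2% in Saa3. The promoters of Hp and Orm1 were not used here.

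The probe sets were 1416025_at for Fgg, 1428079_at for Fgb, 1424279_at for Fga, 1450826_a_at for Saa3, 1419075_s_at and 1450788_at for Saa1, 1448881_at for Hp and 1451054_at for Orm1. Their signal differed. Those of Saa3, Hp and Orm1 lay above the array median on all 12 arrays and that of Fgg on 11. The Fgb probe set passed it on 1 array, and those of Fga and Saa1 on none. The 4 probe sets of Fgg, Saa3, Hp and Orm1 therefore entered the tests, which took probe sets above the median on at least 3 arrays, and the other 4 are given by their values. Array medians ran from 5.84 to 5.91.

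**Figure D1:**
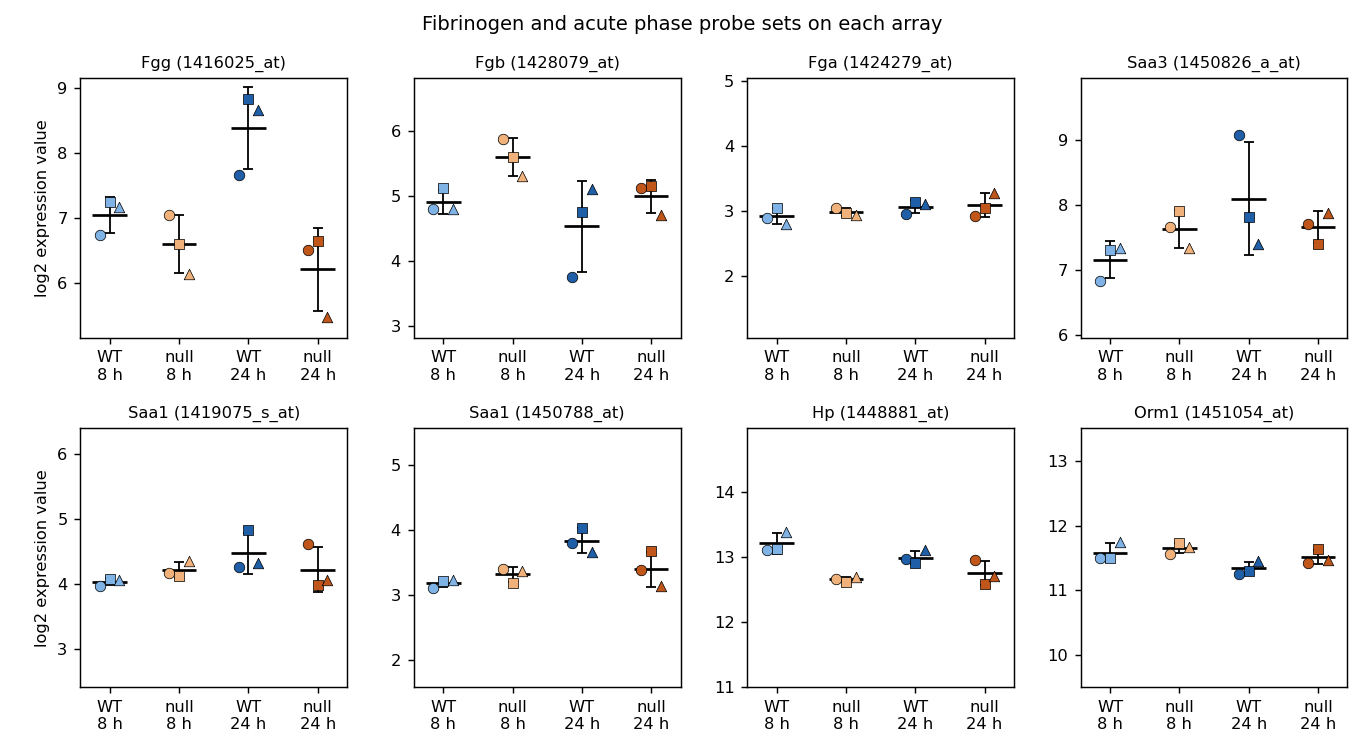
Deposited log2 value of the 8 probe sets of Fga, Fgb, Fgg, Saa1, Saa3, Hp and Orm1 on each of the 12 arrays, by group (3 pools each, shaped by pool number), with a bar at the group mean and its SD; each panel spans 4 log2 units. Fgg at 24 h ran from 7.67 to 8.83 in wild type and from 5.47 to 6.64 in null glands, while Fga stayed between 2.81 and 3.29 on all arrays.

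Fgg, the γ chain gene, was the fibrinogen gene with the higher level in wild type glands. At 24 h its log2 values were 7.67, 8.83 and 8.66 in wild type pools 1 to 3 and 6.51, 6.64 and 5.47 in null pools. Every wild type pool lay above every null pool, with 1.03 between the closest ones. Of all tested probe sets, the genotypes did not overlap for 15.3% at 24 h and 24.4% at 8 h. These shares stand beside every genotype overlap given below. The means were 8.39 ± 0.63 and 6.21 ± 0.64, a 4.53-fold difference (log2 2.18, SE 0.36).

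At 8 h the Fgg values were 6.73, 7.24 and 7.17 in wild type and 7.05, 6.61 and 6.14 in null glands. The groups overlapped, since null pool 1 lay above wild type pool 1. The means were 7.05 ± 0.28 and 6.60 ± 0.45, 1.37-fold apart (log2 0.45, SE 0.36). The genotype difference was thus 1.73 larger (log2, SE 0.51) at 24 h than at 8 h, built from the 2 differences just given.

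In wild type every 24 h pool read higher for Fgg than all 3 pools at 8 h, with 0.42 between the closest pools of the 2 times. The difference was 2.53-fold (log2 1.34, SE 0.36; limma adjusted p = 0.055) and did not pass the threshold of 0.05. It passed with a replicate block (adjusted p = 0.048), with array weights (0.041), without wild type 24 h pool 1 (0.029) and without null 24 h pool 3 (0.032), in a range from 0.029 to 0.20 over 23 alternatives. In null glands the 24 h mean was 1.31-fold below the 8 h mean (log2 -0.39, SE 0.36, adjusted p = 0.58), the pools overlapped, and array weights left a difference of 0.0017 above 0. These time comparisons share their arrays with the genotype comparisons, by which the genes were chosen. They are therefore no independent test of Fgg.

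**Figure D2:**
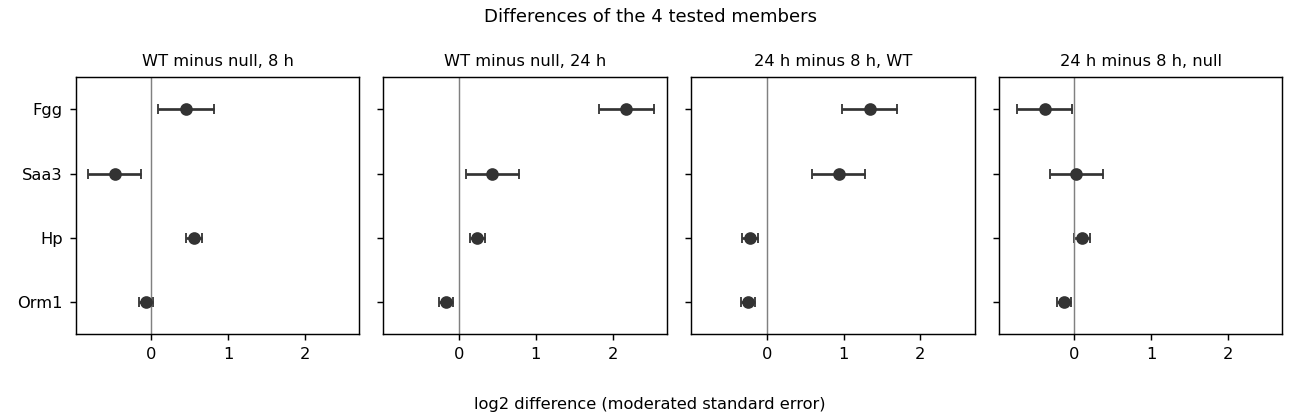
Log2 differences with SE of the 4 tested probe sets (Fgg, Saa3, Hp, Orm1) for wild type minus null at 8 h and 24 h and for 24 h minus 8 h in each genotype. Fgg lay at 2.18 for genotype at 24 h and 1.34 for time in wild type, and Orm1 stayed within 0.24 of 0 in every comparison.

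Fgb, the Bβ chain gene, was low and its values lay in the other direction. At 8 h it read 4.80, 5.13 and 4.80 in wild type and 5.88, 5.61 and 5.31 in null pools, which did not overlap. The means were 4.91 ± 0.19 and 5.60 ± 0.29, 1.61-fold lower in wild type (log2 -0.69, SE 0.28). At 24 h the values were 3.74, 4.75 and 5.10 against 5.13, 5.15 and 4.70, and these overlapped. The means at 24 h were 4.53 ± 0.70 in wild type and 4.99 ± 0.25 in null glands, 1.38-fold apart with wild type lower. From 8 h to 24 h the Fgb mean was 1.30-fold lower in wild type (limma without the filter, adjusted p = 0.54) and 1.52-fold lower in null glands (adjusted p = 0.28), and neither was called. All but 1 of these values lay under the array median.

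Fga, the Aα chain gene, read between 2.81 and 3.29 on all 12 arrays, far under the array medians. Its group means were 2.92 ± 0.12 and 2.98 ± 0.06 in wild type and null glands at 8 h, and 3.07 ± 0.10 and 3.09 ± 0.18 at 24 h. Of the 4 comparisons of genotype or time, the largest difference was 1.11-fold, for time in wild type, and the groups overlapped in all 4 comparisons. At this signal the probe set does not show whether Fga differed.

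Over the 12 arrays Fgg and Fgb did not follow each other (Pearson r = -0.21, permutation p = 0.50; Spearman rho = -0.34, permutation p = 0.28; r = -0.15 without the 2 arrays farthest from the median of Fgb). Of the 28 pairs of probe sets compared this way, the lowest adjusted p was 0.23, for Fgg with a Saa1 probe set. As a description, the deviations of Fgg and Fgb from their group means, which share each array's RNA, correlated with r = 0.86 over 12 arrays. Both were lowest in pool 1 among wild type pools at 24 h and in pool 3 among null pools at both times.

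Most epithelial and all skeletal muscle markers had higher means in wild type beside Fgg at 24 h. Of 13 epithelial markers, 7 were called higher in wild type and 0 lower, where 0.873% of all tested probe sets were called higher and 0.232% lower. The median log2 difference of the 13 was 0.70 beside 0.016 over all tested probe sets. Those called included Prom2 (3.72-fold, SE 0.18), Cldn7 (2.28-fold, SE 0.15), a tight junction gene, Esrp1 (2.09-fold, SE 0.15), an epithelial splicing factor, and Cldn3 (1.99-fold, SE 0.12). The other way, 3 of the 13 had a lower mean in wild type and were not called, the luminal keratins Krt8 (10.98 against 11.17) and Krt19 (10.06 against 10.32) and the transcription factor gene Elf3 (6.53 against 6.62). At 8 h, 2 of the 13 were called higher in wild type, Prom2 (2.19-fold) and Spint1 (1.69-fold). Another 3 were called lower at 8 h, among them Krt8 (1.74-fold) and Cldn4 (1.54-fold), where 1.54% of all probe sets were called in each direction. The summed linear level of the 13 markers was 8999 to 12108 in wild type and 7698 to 9181 in null pools at 24 h, and their mean log2 level was 8.94 to 9.33 against 8.41 to 8.66. In bulk tissue, fewer cells of a type and less RNA per cell cannot be told apart, and the part of the epithelial difference in that of Fgg was not tested. Of 12 skeletal muscle markers, all 12 had a higher mean in wild type at 24 h (median log2 difference 1.79), but 0 were called by limma (1 at an unadjusted p under 0.05); their sums were 18110 to 93223 in wild type and 7655 to 23136 in null pools, and their part in the Fgg difference was not tested. From 8 h to 24 h, 3 of the 13 epithelial markers were called higher and 1 lower in wild type (median 0.31). Of all probe sets 1.53% were called higher and 3.69% lower there. In null glands 0 of the 13 were called higher and 7 lower (median -0.48), beside 0.814% and 3.59% of all.

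Hepatocyte markers were mostly low. Of 12, 11 had a probe set and 7 of these (Apoa1, Apoa2, Apob, Ahsg, Cps1, Tdo2 and Hpd) lay under the median on all 12 arrays. The mean log2 level of the 11 was 5.81 to 6.17 in wild type and 5.96 to 6.12 in null pools at 24 h. The brightest, Cyp2e1, read 13.30 and 13.27 on average in wild type and null glands and made up most of the summed level, which was 9922 to 13173 and 10456 to 11462. Alb read 9.37 ± 0.24 in wild type and 9.42 ± 0.19 in null glands. Of the 4 tested, 0 were called by limma at 24 h (0 at an unadjusted p under 0.05), where 1.11% of all probe sets were called.

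**Figure D3:**
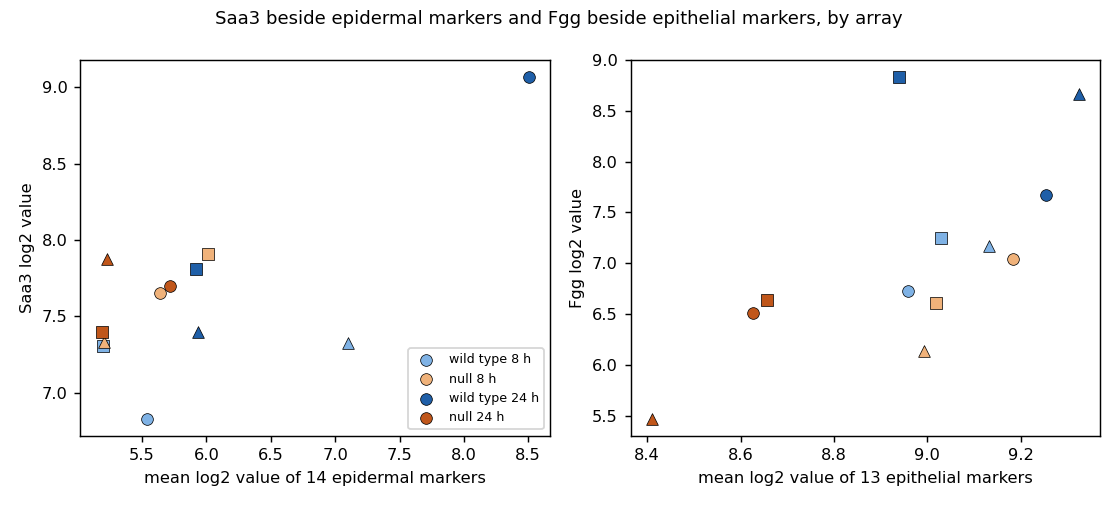
Saa3 log2 value against the mean log2 level of 14 epidermal markers, and Fgg log2 value against that of 13 epithelial markers, with 1 point per array coloured by group and shaped by pool. The epidermal mean stood at 8.50 in wild type 24 h pool 1 and at 5.19 to 7.10 on the other 11 arrays, and the epithelial mean at 24 h was 8.94 to 9.33 in wild type and 8.41 to 8.66 in null pools.

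Saa3, the serum amyloid gene whose probe set was tested, was described first. At 8 h its values were 6.83, 7.31 and 7.33 in wild type and 7.65, 7.91 and 7.33 in null pools. The groups touched without overlap, with 0.0027 between the closest pools. The means were 7.16 ± 0.28 and 7.63 ± 0.29, 1.39-fold lower in wild type (log2 -0.48, SE 0.34).

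At 24 h Saa3 read 9.07, 7.81 and 7.40 in wild type and 7.70, 7.40 and 7.87 in null pools. Wild type pool 1 stood alone at the top and the other pools of the 2 genotypes overlapped. The means were 8.09 ± 0.87 and 7.66 ± 0.24, 1.35-fold apart (log2 0.43, SE 0.34). Without wild type pool 1 the difference was -0.054 (SE 0.22), just below 0.

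Saa3 was 1.91-fold higher at 24 h than at 8 h in wild type (log2 0.94, SE 0.34, limma adjusted p = 0.14) and was not called. The groups lay 0.07 apart, and without wild type 24 h pool 1 the log2 difference was 0.45. In null glands the 2 times gave 7.63 and 7.66 (1.02-fold, adjusted p = 0.98).

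The array with the highest Saa3 value also held the most epidermal signal. Of 15 epidermal markers, chosen after the values were seen, 14 had a probe set, and their summed level was 12291 in wild type 24 h pool 1 against 784 to 3991 on the other 11 arrays. In that pool the skin keratins Krt10 and Krt1 read 12.43 and 10.26, and loricrin (Lor), a protein of the cornified envelope, read 10.10. Other markers of the list were highest elsewhere, Krt77 (8.13) and Dsg1a (5.64) in wild type 8 h pool 3. Ivl (6.06) and Cdsn (6.63) were highest in wild type 24 h pool 3. The next highest sum, 3991, was that of wild type 8 h pool 3, where Saa3 read 7.33. The part of this signal in the Saa3 value was not tested. Among the wild type pools at 24 h, Fgg was lowest in pool 1, at 7.67.

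Saa1 was measured by a pair of probe sets, both under the array median on all 12 arrays. The annotation of 1 of them, 1419075_s_at, rests on the same source sequence as a Saa2 probe set, so its signal may not separate Saa1 from Saa2. The other, 1450788_at, read 3.11, 3.21 and 3.22 in wild type and 3.40, 3.19 and 3.37 in null pools at 8 h, then 3.80, 4.04 and 3.67 in wild type and 3.38, 3.67 and 3.13 in null pools at 24 h. It was 1.58-fold higher at 24 h than at 8 h in wild type, with no overlap (log2 0.66, SE 0.13), and in limma without the filter, where alone it was tested, its adjusted p was 0.028. At this signal, under the array median on every array, the size of the fold is uncertain and the probe set does not show well whether Saa1 differed. For genotype at 24 h the pools of 1450788_at overlapped (1.36-fold, log2 0.44).

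Probe set 1419075_s_at ran from 3.97 to 4.84 over the 12 arrays. Its means were 4.03 ± 0.06 and 4.21 ± 0.12 in wild type and null glands at 8 h, without overlap, and 4.47 ± 0.32 and 4.22 ± 0.35 at 24 h, with overlap. It was 1.36-fold higher at 24 h than at 8 h in wild type (limma without the filter, adjusted p = 0.23). Saa2 and Saa4, the neighbours of Saa1 on chromosome 7, lay under the median on all 12 arrays too.

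Hp differed by genotype at the earlier time. At 8 h its values were 13.12, 13.12 and 13.39 in wild type and 12.66, 12.62 and 12.69 in null pools. All wild type pools lay above all null pools, with 0.42 between the closest ones. The means were 13.21 ± 0.16 and 12.66 ± 0.04, 1.47-fold higher in wild type (log2 0.55, SE 0.10).

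At 24 h Hp read 12.96, 12.91 and 13.10 in wild type and 12.96, 12.59 and 12.71 in null pools, and the groups overlapped through null pool 1. The means were 12.99 ± 0.10 and 12.75 ± 0.19, 1.18-fold apart (log2 0.24, SE 0.10). The genotype difference was 0.31 smaller (log2, SE 0.14) at 24 h than at 8 h. Hp was 1.16-fold lower at 24 h than at 8 h in wild type, with 0.01 between the closest pools (limma adjusted p = 0.24), and 1.07-fold higher in null glands (adjusted p = 0.63), neither of them called.

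The markers of fat and myeloid cells beside the 8 h value of Hp were as follows, where 3.07% of all tested probe sets were called. Of 10 adipocyte markers tested, 0 were called by limma (1 at an unadjusted p under 0.05), with summed levels of 92065 to 96011 in wild type and 91152 to 93881 in null pools. Of 12 macrophage markers, 0 were called (0 at an unadjusted p under 0.05), and their sums were 18539 to 26051 against 13052 to 21409. Of 4 neutrophil markers tested, 1 was called, S100a8, which was higher in wild type (2.63-fold, SE 0.23, adjusted p = 0.0075). S100a9 and Ltf had a higher mean in wild type and Csf3r a lower one, and none of these was called. The median log2 difference of the 4 was 0.13, so S100a8 does not stand for the list. Of the 10 neutrophil markers with a probe set, 6 lay under the array median on all 12 arrays. The sums of the 10 were 2138 to 2637 against 1722 to 2281. Of 12 skeletal muscle markers all 12 had a higher mean in wild type at 8 h (median log2 difference 2.09), 0 were called (3 at an unadjusted p under 0.05), and their sums were 19372 to 48080 against 2412 to 24103. The part of these lists in the Hp difference was not tested.

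Orm1 varied little. It read 11.50, 11.49 and 11.75 in wild type and 11.57, 11.73 and 11.67 in null pools at 8 h, and 11.26, 11.31 and 11.45 against 11.43, 11.64 and 11.47 at 24 h. The genotypes overlapped at both times. The means were 11.58 ± 0.14 and 11.66 ± 0.08 at 8 h (1.05-fold) and 11.34 ± 0.10 and 11.51 ± 0.11 at 24 h (1.13-fold), lower in wild type each time. Orm1 lay 1.18-fold lower at 24 h than at 8 h in wild type, without overlap (limma adjusted p = 0.15), and 1.10-fold lower in null glands (adjusted p = 0.40).

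Its relatives on chromosome 4 also lay lower in wild type and were not called. Orm3, the next gene to Orm1, read 7.0 ± 0.14 in wild type at 8 h against 7.65 ± 0.24 in null glands (1.57-fold, SE 0.20, limma adjusted p = 0.12). At 24 h it read 7.02 ± 0.45 and 7.68 ± 0.17 (1.58-fold, adjusted p = 0.17), and the genotypes did not overlap at either time. Orm2 read 6.29 ± 0.35 and 6.73 ± 0.30 at 8 h (1.36-fold, adjusted p = 0.34) and 6.0 ± 0.30 and 6.21 ± 0.18 at 24 h (1.16-fold, adjusted p = 0.71). The Orm genes are close copies, and how far these probe sets tell them apart was not tested.

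Among the 4 tested probe sets, limma called 1 higher in wild type at 8 h (Hp), where 3.07% of the 23709 probe sets tested were called and 1.54% were called higher. It called 1 higher at 24 h (Fgg), where 1.11% of all were called and 0.873% higher. Hp was not called without null 8 h pool 2 (adjusted p = 0.060), and Fgg was not called without wild type 24 h pool 3 (0.079) or when the 24 h arrays were fitted alone (0.11). For the change of the genotype difference between the times 0 of 4 were called (2 at an unadjusted p under 0.05; 0.143% of all probe sets were called). The genes were chosen on these comparisons, so the counts are no test and nothing is read from them.

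For time in wild type, 0 of 4 were called (3 at an unadjusted p under 0.05), where 5.22% of all probe sets were called, 1.53% higher and 3.69% lower at 24 h. In null glands 0 of 4 were called (0 at an unadjusted p under 0.05), where 4.40% of all were called, 0.814% higher and 3.59% lower; a replicate block raised that comparison's count from 1044 to 1667 probe sets and called none of the 4. The median log2 difference of the 4 was 0.36 in wild type and -0.06 in null glands, beside -0.02 and -0.03 over all tested probe sets. A p that misses the threshold does not show that the levels were alike. Groups did not overlap for 4 of the 4 in wild type, where 25.9% of all probe sets did not, with Fgg and Saa3 higher and Hp and Orm1 lower at 24 h. In null glands 0 of 4 were free of overlap, beside 26.0% of all. The genes were chosen on genotype comparisons that share these arrays. The time counts are therefore no test either, and nothing is read from them.

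The genes with the pattern most like each tested gene were found by Pearson r over the 12 arrays among 12003 other genes, and are given as a description of shared arrays. For Fgg they were Pyroxd1 (r = 0.926), Tfap2b (0.922) and Plekhh1 (0.911), with r from 0.590 to 0.754 once group means were taken out. For Hp they were H2bc18 (r = 0.971), Slc39a1 (0.968), which encodes a zinc transporter, and Rbm46 (0.932), with r from 0.631 to 0.891 without group means. For Orm1 they were Ccn2 (r = 0.931), a matrix-associated growth factor gene, Kcne4 (0.923) and Fam91a1 (0.923), with r from 0.871 to 0.920 without group means. For Saa3 they were Snrpc (r = 0.907), Krt78 (0.837) and Lce1i (0.833). Krt78 and Lce1i are epidermal genes, and without the 2 arrays farthest from the Saa3 median their r fell to 0.016 and 0.332, so these relations rested on those arrays, while that of Snrpc was 0.645. Krt78 read 7.94 in wild type 24 h pool 1 and 6.02 to 6.34 elsewhere.

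Chil1 and Lcn2 were higher in wild type at 24 h among the other acute phase genes. Of 27 further genes that rise in the acute phase, 13 were tested. This list, the marker lists above and the lists below were chosen with earlier results of these data known. Their counts are a description beside the shares over all probe sets, and no test. At 24 h, 2 of the 13 were called higher in wild type and 0 lower, and the median log2 difference was 0.20. Of all tested probe sets 0.873% were called higher and 0.232% lower, with a median of 0.016. In limma 6 of the 13 had an unadjusted p under 0.05, and of these Orm3 (log2 -0.66) and Serpina3n (-0.55) were lower in wild type. Serpina3n was lower without overlap at both times, 1.46-fold at 24 h (limma adjusted p = 0.26) and 1.70-fold at 8 h (adjusted p = 0.070). Chil1, a secreted chitinase-like protein gene, read 7.64, 7.93 and 8.19 in wild type and 6.92, 6.58 and 6.63 in null pools (2.31-fold, SE 0.21, adjusted p = 0.019). Lcn2, which encodes the iron-siderophore binding protein lipocalin, read 9.78, 9.78 and 10.27 against 9.07, 9.10 and 8.81 (1.93-fold, SE 0.17, adjusted p = 0.021). Neither overlapped between genotypes. Each of these 2 calls was lost without wild type 24 h pool 3, null 24 h pool 2 or null 24 h pool 3, with adjusted p from 0.068 to 0.095 for Chil1 and from 0.056 to 0.091 for Lcn2. That of Lcn2 was also lost when the 24 h arrays were fitted alone (0.078). The epithelial marker values given for Fgg stand beside these 2 genes as well.

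At 8 h 0 of the 13 were called higher and 1 lower in wild type, with a median of -0.12, where 1.54% of all probe sets were called in each direction. That gene was Cp, which encodes the copper carrier ceruloplasmin, at 11.13, 11.41 and 11.41 in wild type and 11.73, 11.77 and 11.79 in null pools (1.36-fold, SE 0.09, adjusted p = 0.023). Its call was lost without wild type 8 h pool 1 or without any 1 of the null 8 h pools (adjusted p from 0.052 to 0.10). From 8 h to 24 h 0 of 13 were called in wild type (2 at an unadjusted p under 0.05). Of all probe sets 5.22% were called for time in wild type and 4.40% in null glands. In null glands 2 fell, Cd14, a co-receptor for bacterial lipopolysaccharide (1.51-fold, adjusted p = 0.021), and Cp (1.32-fold, adjusted p = 0.036). There 7 of the 13 had an unadjusted p under 0.05, 11 lay lower and 2 higher at 24 h, and the median was -0.40. Lcn2 was 1.57-fold lower at 24 h in null glands (limma adjusted p = 0.053) and 1.11-fold higher in wild type (0.65), neither called. The fall of Cd14 was lost without null pool 2 or 3 of either time (adjusted p from 0.057 to 0.087), and that of Cp without any null 8 h pool or without null 24 h pool 2 or 3 (0.060 to 0.12), with quantile normalization (0.082) or when the null arrays were fitted alone (0.080). Of 8 genes that fall in the acute phase, 3 were tested and limma called 0 in each comparison (0 for genotype at either time and 1 for time in each genotype at an unadjusted p under 0.05).

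**Figure D4:**
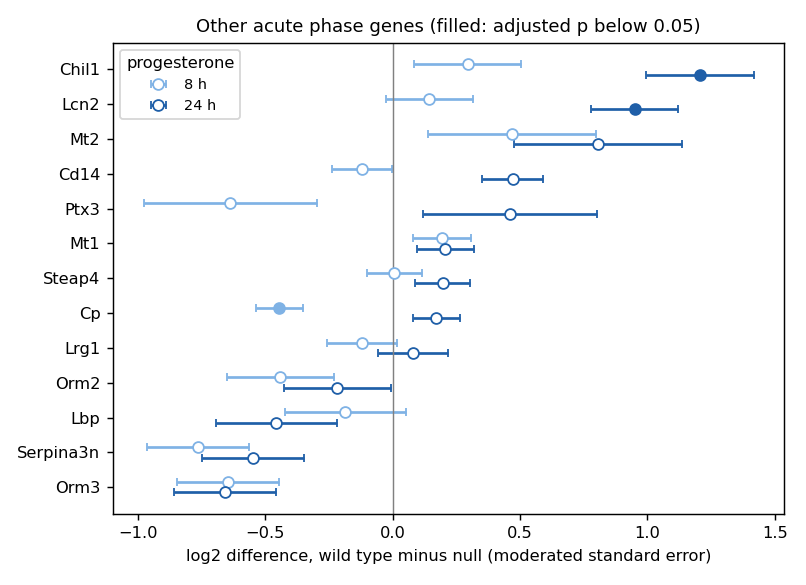
Log2 difference with SE of the 13 tested further acute phase genes for wild type minus null at 8 h (light) and 24 h (dark); filled points had an adjusted p under 0.05. Chil1 (1.21) and Lcn2 (0.95) lay highest at 24 h, and Orm3 lay at -0.65 and -0.66.

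Genes of the clotting cascade that makes and dissolves fibrin were tested as a group of 15 out of 28 listed. At 8 h F3, the tissue factor gene that starts clotting, was lower in wild type (1.81-fold, SE 0.17, adjusted p = 0.022), and Vwf, the endothelial gene for von Willebrand factor, was higher (1.78-fold, SE 0.14, adjusted p = 0.0090). Of 8 endothelial markers, Vwf was the 1 with a higher mean in wild type at 8 h. The other 7 had a lower mean and were not called, and the median log2 difference was -0.15. The F3 call was lost without wild type 8 h pool 1 or 2 or null 8 h pool 2 or 3 (adjusted p from 0.072 to 0.10), or with the 8 h arrays alone (0.065). At 24 h, 0 of 15 were called by limma (3 at an unadjusted p under 0.05), with a median of 0.0038. Of all tested probe sets 3.07% were called for genotype at 8 h and 1.11% at 24 h. For time the shares were 5.22% in wild type and 4.40% in null glands. With time, F3 fell in null glands (2.18-fold, adjusted p = 0.0070). F8, the factor VIII gene, was the 1 called in wild type (1.43-fold higher, adjusted p = 0.049), but its 8 h mean, 5.50, lay under the array median. That call was lost in 15 of 23 alternatives, 10 of them single arrays left out and the others no filter, quantile normalization, median centring, 1 probe set per gene and wild type arrays alone (adjusted p up to 0.17).

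Of 28 complement genes listed 17 were tested. For genotype limma called 0 at 8 h (1 at an unadjusted p under 0.05) and 0 at 24 h (0 at an unadjusted p under 0.05). Of all tested probe sets, 3.07% were called at 8 h and 1.11% at 24 h, and 4.40% for time in null glands. These shares also stand beside the receptors below. The receptor gene C5ar1 fell with time in null glands (2.27-fold, SE 0.26, adjusted p = 0.029), a call lost without null pool 2 or 3 of either time (0.065 to 0.12) or with the null arrays alone (0.052). C5ar1 lay above the array median on 6 arrays and its 24 h means of 5.21 and 5.06 lay under it, so it entered the test through the 8 h arrays and the size of its fold is uncertain. For 14 receptors of the proteins studied here, which include the haptoglobin-haemoglobin receptor Cd163 and the fibrinogen-binding integrins Itgam and Itgb3, 0 were called for genotype at either time (0 at an unadjusted p under 0.05 each time). The 1 receptor called in any comparison was Scarb1, a lipoprotein receptor gene, which fell with time in null glands (1.37-fold, adjusted p = 0.016). The call of Scarb1 was lost on leaving out pool 2 or 3 of null 8 h or pool 3 of null 24 h (0.054 to 0.078), or with the null arrays alone (0.059).

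Of the cytokines and transcription factors that induce acute phase genes, 21 of 28 were tested. Il6, Il1a, Il1b, Tnf and Osm lay under the array median on all 12 arrays. Lif, an interleukin-6 family cytokine gene, was higher in wild type at 8 h (1.56-fold, SE 0.11, adjusted p = 0.0083), a call lost without wild type 8 h pool 1 (0.052). It was the 1 gene of the list called for genotype at 8 h, and at 24 h limma called 0 (4 at an unadjusted p under 0.05), with medians of 0.0080 and 0.036. Of all tested probe sets 3.07% were called at 8 h and 1.11% at 24 h.

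With time, 5 of the 21 fell and 1 rose in wild type, where 3.69% of all probe sets were called lower and 1.53% higher. In null glands 6 fell and 0 rose, where 3.59% were called lower and 0.814% higher. Lif fell 1.98-fold in wild type (adjusted p = 0.0012) and 1.63-fold in null glands (adjusted p = 0.0066). Lif lay above the array median on 6 arrays and its 24 h means, 5.63 and 5.28, lay under it, so it entered the test through the 8 h arrays and the size of its fold is uncertain. Cebpb, which encodes C/EBPβ, fell 1.54-fold (adjusted p = 0.0098) and 1.61-fold (adjusted p = 0.0064). The interleukin-1 receptor gene Il1r1 fell 1.43-fold (adjusted p = 0.025, lost without wild type 8 h pool 1 or 3 or any wild type 24 h pool, 0.051 to 0.078, or with the wild type arrays alone, 0.067) and 1.60-fold (adjusted p = 0.0090). The oncostatin M receptor gene Osmr fell in null glands (1.59-fold, adjusted p = 0.017, lost on leaving out null pool 3 of 8 h, 0.072, or of 24 h, 0.056, or with the null arrays alone, 0.052). The pioneer factor gene Foxa1 rose in wild type (1.77-fold, adjusted p = 0.014, lost without wild type 8 h pool 1, 0.058). Stat3 and Nr3c1, the glucocorticoid receptor gene, named after their values were seen, made up the other called falls. Stat3 fell 1.29-fold in wild type (adjusted p = 0.017, lost without wild type 8 h pool 1, 0.077) and 1.48-fold in null glands (adjusted p = 0.0024). Nr3c1 fell 1.29-fold (adjusted p = 0.012, lost without wild type 8 h pool 1, 0.061) and 1.24-fold (adjusted p = 0.023, lost on leaving out pool 1 or 3 of null 8 h or pool 2 or 3 of null 24 h, 0.052 to 0.099, with quantile normalization, 0.064, or with the null arrays alone, 0.087).

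The genotype labels could be checked only in part. Pgr, the progesterone receptor gene, had 3 probe sets, and the position of their probes relative to the null allele is not known here. The brightest was higher in wild type at 8 h (2.08-fold, limma adjusted p = 0.012), with a smaller and uncalled difference of 1.28-fold at 24 h. A different probe set was higher in null glands at both times (3.92-fold, limma adjusted p = 6.0e-05, and 4.28-fold, adjusted p = 9.0e-05). Its wild type means, 4.87 at 8 h and 4.28 at 24 h, lay under the array median. It therefore entered the test through the null arrays, and the size of its fold is uncertain. The third did not enter the tests.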

How the data were processed

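Mammary gland RNA was hybridised to 12 Affymetrix mouse arrays, 3 in each of 4 groups taken from the labels. The deposited values, 45101 probe sets by 12 arrays, were read as log2 from their range, and nothing given here states their scale. MAS5 is named, with no role or version, per the submitters' processing notes; how the authors summarized and normalized the deposited log2 values is not given in the sources used here, and no raw array files were used. Array medians of 5.84 to 5.91 show values that were scaled alike between arrays.

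Probe sets were named from GEO's platform annotation. Of 45037 that are not controls, 34945 had 1 symbol, 932 several and 9160 none; 34741 matched the RefSeq table of GRCm38.p6 by Entrez ID, and 0 symbols changed. Tests took the 23709 probe sets above the array median on at least 3 arrays (12004 genes, each represented by the probe set of highest mean), with limma 3.58.1 in R 4.3.3 (lmFit, eBayes with trend, 4 group means over all 12 arrays, 8 residual degrees of freedom). Calls were made where the Benjamini-Hochberg adjusted p over all tested probe sets lay under 0.05, and rose or fell is used of called time differences. Probe sets under the filter were fitted in the run without it. The members and gene lists were chosen with earlier results of these data known. The rule for naming took every member probe set, up to 4 called genes of each list with the largest difference, and the 3 genes most like each tested member. Correlations used 100000 permutations. A planned comparison of protein sequences was not run. The calculation was tested on simulated data. Alternatives covered the filter, the prior, a floor at the 25th percentile, quantile normalization, median centring, array weights, a replicate block, 1 probe set per gene, the arrays fitted and leaving out each array. The number of arrays limits the precision, and p-values measure the spread between pools.

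The labels number the pools 1 to 3 without saying that a number marks a shared batch. Deviations from group means of same-numbered arrays correlated with r from 0.26 to 0.52 in the 3 pairs of null 8 h and null 24 h arrays, so the numbers were taken as pairs there, from the data alone. The values printed are from the fit without a block, and blocked values stand beside it where a call or a count moved. In the other comparisons at least 1 pair lay under 0.1. For wild type over time, where the block moved the call of Fgg, pools 1 to 3 gave r = 0.453, -0.013 and 0.023. The numbers were not taken as pairs there. Figures were drawn with matplotlib 3.10.9.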

Additional observations from a re-analysis of the deposited data

Results flagged for a closer look

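The genotype difference of Cldn4, an epithelial junction gene of the marker list, was 0.89 higher (log2, 1.85-fold, SE 0.14, limma adjusted p = 0.047) at 24 h than at 8 h, which brought it up as a difference between the time points; 16 of 22 alternatives ended that call, 10 of them single arrays left out (highest adjusted p = 0.14).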

How the results depend on the processing

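The group means of the 8 member probe sets all stayed within 1 SD under quantile normalization and median centring (64 means). Of the member differences, 3 were reversed among settings other than leaving out an array and 4 among those that left 1 out. These were Saa3 for genotype at 24 h without wild type 24 h pool 1 (-0.0542, in a leave-one-out range up to 0.782), and for the null time difference Fgg with array weights (0.0017), Hp with array weights (-0.0023) or without null 24 h pool 1 (-0.0062, range up to 0.179), and Saa3 with array weights (-0.152), without null 8 h pool 3 (-0.123) or without null 24 h pool 3 (-0.0807, range up to 0.166). Array 1 of wild type at 24 h was left out as an alternative noted after seeing the data, and it was also among the planned ones.

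Genotype at 8 h had 729 called probe sets, which became 4017 with array weights, 339 with 1 probe set per gene and 320 to 889 when an array was left out. Genotype at 24 h had 262, with 685 under array weights, 165 with 1 probe set per gene, 71 when only those groups were fitted and 126 to 704 when an array was left out. The change of the genotype difference had 34, with 169 under array weights, 10 with 1 probe set per gene, 21 with probe sets above the median on 6 arrays and 12 to 45 when an array was left out. Wild type over time had 1238, with 649 for 1 probe set per gene, 500 for only those groups and 239 to 1328 when an array was left out. Null over time had 1044, with 5775, 572 and 348 under the same 3 choices (array weights first) and 232 to 1202 when an array was left out. For the change, the fixed lists held 1 called gene, against 0 without the filter, 0 with quantile normalization and 2 with median centring. The causes were not tested, except that 1 probe set per gene and fewer arrays leave fewer to test or to fit.

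With the replicate block, null over time gave 1667 called probe sets against 1044, genotype at 24 h gave 482, genotype at 8 h 1042, the change 28 and wild type over time 1815; among members it changed the call of Fgg for time in wild type and no other, and it ended no call of a list gene named for null over time.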
